A study of Mus musculus with 5 samples.

Results

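The genes of cholesterol, fatty acid and sphingolipid synthesis were examined in maps of the binding of ZFP24, a zinc finger transcription factor whose older name is ZFP191, in mouse oligodendrocytes (OLG) and in the oligodendrocyte progenitor cells (OPC) they come from. The set was a listed pathway of 37 genes, out of 21668 protein-coding genes on chromosomes 1 to 19 and X. It was made up of 16 genes of the cholesterol pathway, 5 regulators of sterol-responsive transcription, 9 genes of fatty acid synthesis, elongation and desaturation, and 7 genes of sphingolipid synthesis. A gene was counted as having a peak where the centre of a ZFP24 peak lay within 10 kb of the start of one of its protein-coding transcripts. Of the 37 genes, 4 had such a peak in OLG and 3 in OPC.

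The chromatin immunoprecipitation and sequencing (ChIP-seq) experiment used an antibody against ZNF24 on cells that had been immunopanned from brains of postnatal day 7 mice. There were 5 libraries, 1 in each group, namely wild-type (C57BL/6) OLG, Zfp24-null (Zfp191-null) OLG, wild-type OPC, Zfp24-null OPC and a pooled input. The OLG of both genotypes had been kept for 5 days in culture with 40 ng/ml triiodothyronine and no PDGF, which drives progenitors to differentiate, and the null cells and the input were controls. The values were 2 lists of peak positions, with 1752 peaks of 221 bp in OLG and 4643 peaks of 209 bp in OPC, and neither list holds a read count, score or fold for a peak. Depth is therefore unknown, there is no replicate check, and the exact (Clopper-Pearson) 95% intervals below cover counting error over genes only. A list also grows with depth and with the calling threshold, so cell type, library and calling cannot be told apart in any difference between OLG and OPC. Peak positions hold no expression, and neither the cell types nor the null genotype could be checked in them.

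Cholesterol is built from acetyl-CoA through mevalonate, squalene and lanosterol, and the genes of this route are switched on together by the SREBP transcription factors when sterols are low. Fatty acids are made from acetyl-CoA by the carboxylase and the synthase and are then lengthened by ELOVL enzymes and desaturated by SCD enzymes. Ceramide synthases join a fatty acid to a sphingoid base, and the length of that fatty acid depends on which synthase is used. Myelin is rich in cholesterol and in galactolipids that carry very long fatty acids, so oligodendrocytes depend heavily on these routes when they make myelin. ZFP24 is known to bind tandem TCAT repeats.

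The sequences under the peaks show the base composition that most of them had and the few that held a repeat. All are given 5′ to 3′ in GRCm38. Bases annotated as untranslated region were left out, as were short stretches beside them. The first pair are OLG peaks just inside fatty acid genes. That of Acly (chr11:100527078-100527298, minus strand, the strand of the gene) and that of Elovl7 (chr13:108214548-108214768, plus strand) have in capitals the letters CANNTG, the pattern of an E-box, of which each holds 1.
Acly, OLG peak: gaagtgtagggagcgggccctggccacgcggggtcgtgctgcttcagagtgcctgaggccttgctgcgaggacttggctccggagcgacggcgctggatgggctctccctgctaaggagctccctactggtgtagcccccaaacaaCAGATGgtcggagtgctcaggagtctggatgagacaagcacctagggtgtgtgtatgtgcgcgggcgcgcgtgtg
Elovl7, OLG peak: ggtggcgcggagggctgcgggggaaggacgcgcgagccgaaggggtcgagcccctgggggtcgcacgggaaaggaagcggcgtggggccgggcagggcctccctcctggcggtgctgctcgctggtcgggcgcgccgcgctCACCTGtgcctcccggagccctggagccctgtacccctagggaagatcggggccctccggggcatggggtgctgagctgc
Cers2 was the gene of the set with a site in both lists. Its OLG peak is shown for chr3:95315539-95315610 and its OPC peak for chr3:95315346-95315398 (both plus strand), and the capitals in the OPC sequence mark bases that also lay in the OLG peak. Those bases are a short stretch left out of the OLG sequence, so they are not seen in it.
Cers2, OLG peak: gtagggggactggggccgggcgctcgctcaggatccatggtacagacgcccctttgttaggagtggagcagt
Cers2, OPC peak: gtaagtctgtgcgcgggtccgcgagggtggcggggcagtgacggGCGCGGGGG
The OPC peak of Cers6 (chr2:68861636-68861802, plus strand) covers the beginning of the coding sequence, with the start codon in capitals. The second OPC peak of Acaca (chr11:84180068-84180252, plus strand) holds 1 copy of the GC box letters GGGCGG, in capitals and here on the other strand.
Cers6, OPC peak: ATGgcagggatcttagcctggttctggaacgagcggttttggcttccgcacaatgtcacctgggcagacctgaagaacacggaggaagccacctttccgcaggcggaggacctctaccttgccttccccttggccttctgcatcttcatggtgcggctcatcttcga
Acaca, OPC peak: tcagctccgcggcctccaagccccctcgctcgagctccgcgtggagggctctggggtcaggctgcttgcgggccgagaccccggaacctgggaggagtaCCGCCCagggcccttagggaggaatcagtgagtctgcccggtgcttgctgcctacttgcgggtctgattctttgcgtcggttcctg
The last pair are OPC peaks inside Elovl7 (chr13:108231459-108231667, plus strand) and Srebf2 (chr15:82175529-82175737, plus strand), with the tandem TCAT tract in capitals. In Srebf2 the TCAT unit is on the other strand.
Elovl7, OPC intron peak: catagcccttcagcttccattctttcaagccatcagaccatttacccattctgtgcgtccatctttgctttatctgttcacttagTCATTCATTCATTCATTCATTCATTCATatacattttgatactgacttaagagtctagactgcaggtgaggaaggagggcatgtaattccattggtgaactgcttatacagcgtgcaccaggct
Srebf2, OPC intron peak: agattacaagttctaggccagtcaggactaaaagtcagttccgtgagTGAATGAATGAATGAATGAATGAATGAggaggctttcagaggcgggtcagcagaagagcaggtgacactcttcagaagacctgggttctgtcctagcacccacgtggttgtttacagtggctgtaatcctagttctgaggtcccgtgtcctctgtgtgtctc

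In OLG the genes with a peak within 10 kb were Acly, Elovl1, Elovl7 and Cers2, which is 10.8% of the 37 (95% interval 3.03 to 25.4), where 6.48% of all protein-coding genes had one. In OPC they were Acaca, Cers2 and Cers6, which is 8.11% (1.70 to 21.9), where 12.8% of all genes had one. At the share of all genes, 37 genes would hold 2.40 in OLG and 4.72 in OPC, and both shares of all genes lay within the intervals of the set. Cers2 alone was in both lists, which is 2.70% of the 37 (0.0684 to 14.2), where 2.11% of all genes had a peak in both. It was 1 of the 4 OLG genes and 1 of the 3 OPC genes. Over all genes, 458 were in both lists, of 1404 with an OLG peak and 2764 with an OPC peak. Over all peaks, 254 of 1752 OLG peaks (14.5%) and 254 of 4643 OPC peaks (5.47%) overlapped a peak of the other list. Most peaks were thus in 1 list alone. In at least 1 of the lists, 6 genes or 16.2% (6.19 to 32.0) had a peak, beside 17.1% of all genes. The intervals of the whole set are wide and include the shares of all genes, so the set was not set apart from all genes.

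**Figure D1:**
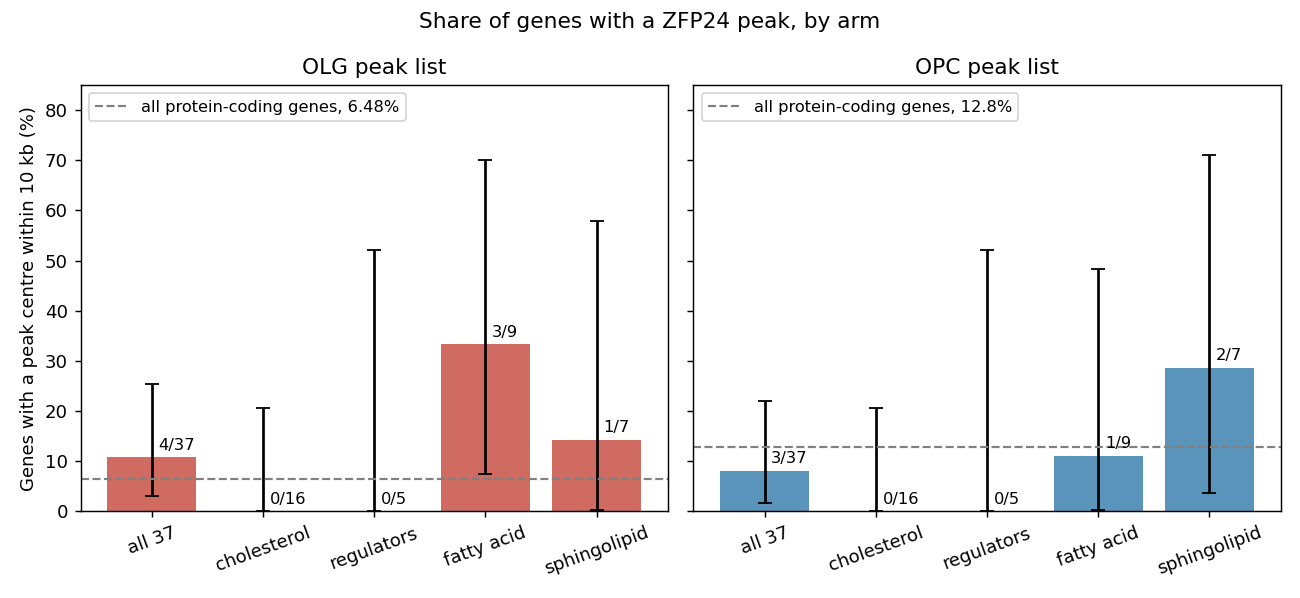
Share of genes (%, from 0) with a ZFP24 peak centre within 10 kb of a transcript start, in the OLG list (left) and the OPC list (right), for all 37 genes and each branch. Bars are shares with counts beside them, lines are exact 95% intervals over genes, and the dashed line is the share of all protein-coding genes, 6.48% in OLG and 12.8% in OPC. The cholesterol genes and the regulators are at 0 in both lists, and the intervals of the other branches are wide.

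By branch, fatty acid genes held 3 of the 4 OLG genes. A peak lay within 10 kb of 3 of 9 fatty acid genes in OLG (33.3%, 7.49 to 70.1) and of 1 of 9 in OPC (11.1%, 0.281 to 48.2). Of the sphingolipid genes 1 of 7 had a peak in OLG (14.3%, 0.361 to 57.9) and 2 of 7 in OPC (28.6%, 3.67 to 71.0). Of the cholesterol genes 0 of 16 had a peak in either list, with an interval of 0 to 20.6%. At the share of all genes, 16 genes would hold 1.04 in OLG and 2.04 in OPC. Of the regulators 0 of 5 had a peak in either list, with an interval of 0 to 52.2%. The lower bound of 7.49% for fatty acid genes in OLG was the only branch interval that did not include the share of all genes. At 2 kb the count was 2 of 9 (22.2%, with a lower bound of 2.81%, beside 4.57% of all genes) and at 50 kb 3 of 9, and both intervals include the share of all genes at that window. With each peak counted only for the gene of the nearest start it was also 2 of 9, beside 7.45% of all genes, since the peaks of Elovl1 lie nearer to Cdc20. The bound rests on 3 genes of a set chosen with results of these data known, and differences between branches were not tested.

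Acly encodes ATP citrate lyase, which makes the cytosolic acetyl-CoA that both fatty acids and cholesterol are built from. Its OLG peak was centred 681 bp downstream of the transcript start, in the first part of the gene, in an intron. Its nearest OPC peak was 161134 bp away, so the site was in the OLG list alone, as were most OLG peaks.

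Elovl7 encodes an elongase of long and very long fatty acids. In OLG its peak was in an intron 254 bp downstream of the start. In OPC the nearest peak was in an intron 17159 bp downstream, and the centres of the OLG and OPC peaks were 16905 bp apart. The gene thus had a start-side peak in OLG and a separate internal peak in OPC that lay outside the 10 kb limit.

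Elovl1 encodes the elongase that makes the very long saturated fatty acids of sphingolipids. It had 2 OLG peaks, centred 7514 and 9043 bp downstream of its start (chr4:118437105-118437325 and chr4:118438634-118438854), 1529 bp from each other and past the end of the gene. Both were nearer to the start of Cdc20, a cell cycle gene, at 137 and 1392 bp, and the first lay in an untranslated exon of Cdc20. Its nearest OPC peak was 197352 bp away. Elovl1 is counted by the 10 kb rule, with peaks that lay closer to the start of its neighbour.

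Acaca encodes acetyl-CoA carboxylase, the committed step of fatty acid synthesis. It had 2 OPC peaks, in an intron 6137 and 7050 bp downstream of the nearest protein-coding start of the GENCODE basic annotation (chr11:84179155-84179363 and chr11:84180068-84180276), 913 bp from each other. RefSeq lists 7 mRNA starts for this gene, and from the nearest of these the peaks lay 994 and 81 bp upstream. The second OPC peak is therefore intronic by one annotation and at a promoter by the other. In RefSeq, all 209 bases of the first peak and 24 bases of the second are annotated as untranslated exon. In OLG the nearest peak was 319547 bp from a GENCODE start.

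Cers2 encodes the ceramide synthase that uses very long fatty acids and is the main one in oligodendrocytes. Its OLG peak (chr3:95315390-95315610) was centred 416 bp and its OPC peak (chr3:95315242-95315450) 262 bp downstream of the start. By GENCODE basic both centres were in an intron, while by RefSeq the OLG centre was in an untranslated exon. By GENCODE or RefSeq, 140 of the 221 bases of the OLG peak and 156 of the 209 bases of the OPC peak are also annotated as untranslated exon. The centres were 154 bp apart and the peaks overlapped by 61 bp (chr3:95315390-95315450), which made this the shared site of the set within 10 kb. From the nearest RefSeq starts the OLG peak was 101 bp downstream and the OPC peak 53 bp upstream. A further OPC peak lay 31698 bp upstream of Cers2, 442 bp from the start of Mindy1.

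Cers6 encodes a ceramide synthase that prefers shorter fatty acids. Its OPC peak was centred 112 bp downstream of the start (chr2:68861594-68861802), in the first coding exon. A second OPC peak lay in an intron 120007 bp downstream (chr2:68981489-68981697). Its nearest OLG peak was 390287 bp away, so both Cers6 sites were in the OPC list alone, as were most OPC peaks.

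**Figure D2:**
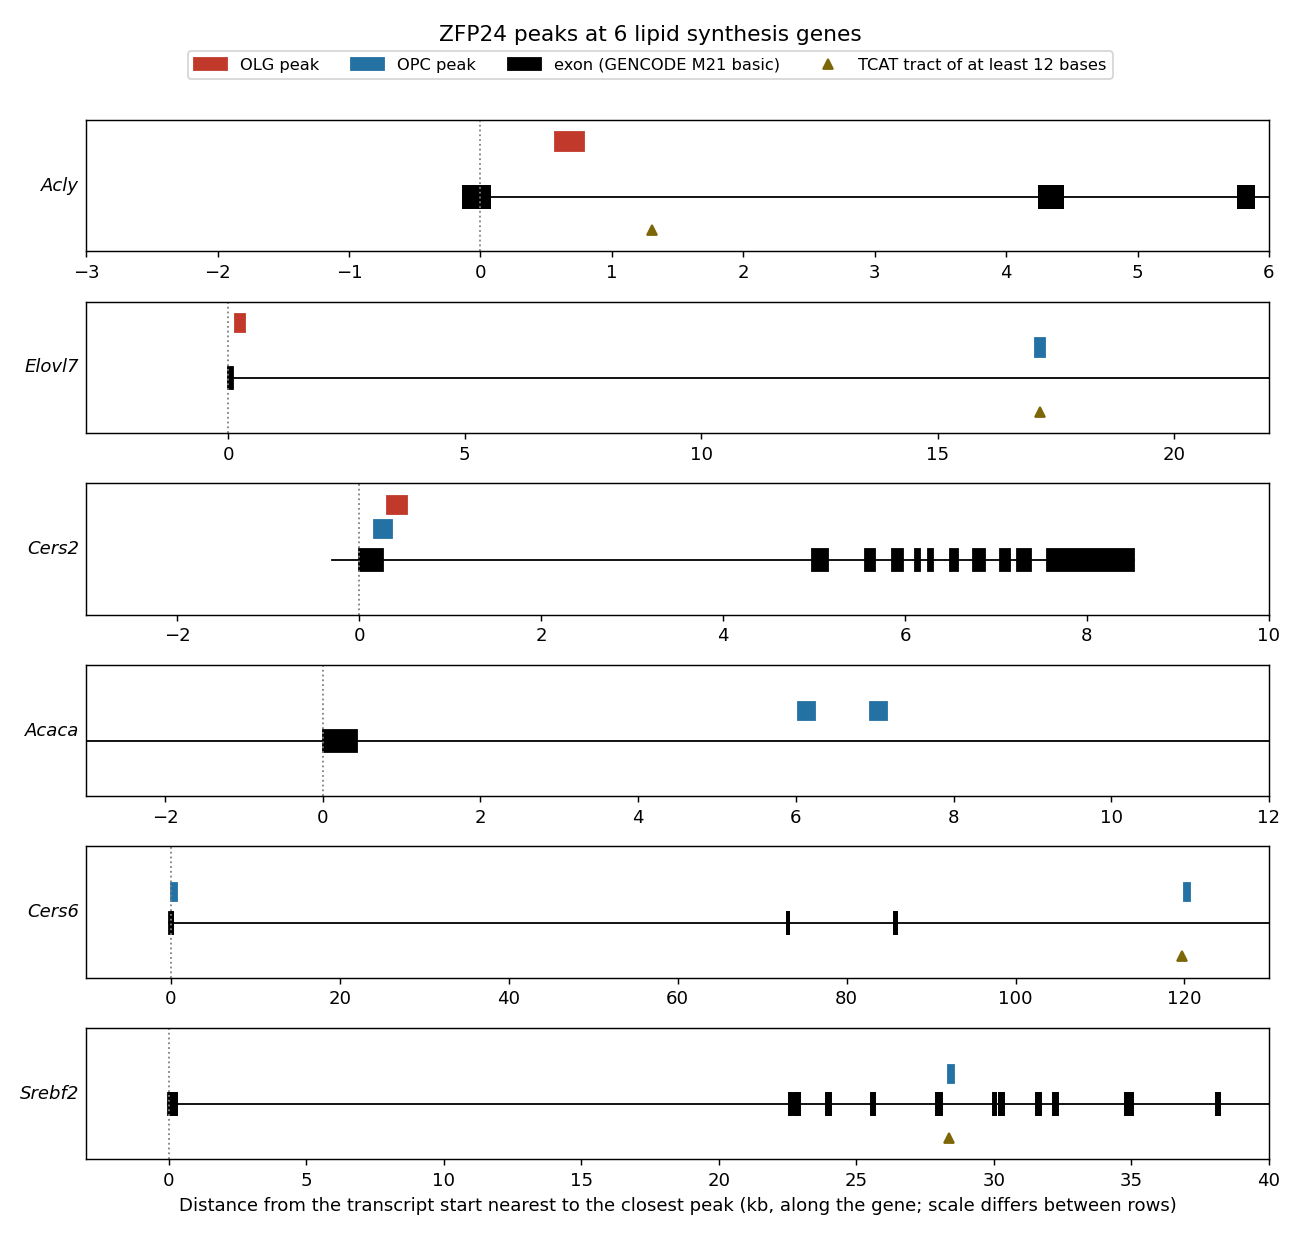
Positions of ZFP24 peaks at 6 of the genes, in kb from the transcript start nearest to the closest peak, along the direction of transcription (scales differ between rows). OLG peaks are above OPC peaks, black boxes are GENCODE exons and triangles are TCAT tracts of at least 12 bases. Start-side peaks of Acly, Elovl7, Cers2 and Cers6 stand apart from tracts, while the Elovl7 and Srebf2 intron peaks of OPC sit on one.

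The genes just outside the 10 kb limit were as follows. In OLG they were Msmo1, a methylsterol monooxygenase gene of the cholesterol route, at 40804 bp, Lss, the lanosterol synthase gene, at 103300 bp, and Fdft1, the squalene synthase gene, at 118229 bp. In OPC they were Elovl7 at 17159 bp, Srebf2 at 28429 bp and Srebf1 at 32150 bp. From RefSeq starts the last 2 were in the other order, with Srebf1 at 20806 bp and Srebf2 at 28083 bp. On its inside, the nearest to the limit were Elovl1 at 7514 bp in OLG and Acaca at 6137 bp in OPC. No gene of the set had its nearest peak between 10 kb and 17159 bp in either list.

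The 5 regulators had their nearest OLG peaks far away and their nearest OPC peaks at 28429 to 95042 bp from GENCODE starts. Srebf2 encodes the SREBP that drives the cholesterol genes. Its nearest OLG peak was 752155 bp away, and its OPC peak was in an intron, 28429 bp downstream of the start. Srebf1 encodes the SREBP that drives mainly fatty acid genes. Its nearest OLG peak was 801474 bp away and its OPC peak 32150 bp downstream, past the end of the gene, in a coding exon of Rai1. From the nearest RefSeq start the OPC distance of Srebf1 was 20806 bp. Scap encodes the escort protein of the SREBPs, and its distances were 320572 bp in OLG and 64185 bp in OPC. Insig1 and Insig2 encode the proteins that hold SCAP back when sterols are high. For Insig1 the distances were 402074 bp in OLG and 95042 bp in OPC. For Insig2 they were 1248593 bp in OLG and 46045 bp in OPC, upstream and between genes. Their median distance was 752 kb in OLG, where that of all genes was 335 kb, and 46.0 kb in OPC, where that of all genes was 129 kb.

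Cholesterol genes had the longest median distance of the branches in OPC. In the mevalonate part, the nearest OLG peak was 1303458 bp from Hmgcs1, the HMG-CoA synthase gene, 565198 bp from Mvk and 210056 bp from Pmvk, the kinase genes, and 200295 bp from Mvd, the decarboxylase gene. The OPC distances of these genes were 51257 bp for Hmgcs1, 245616 bp for Mvk, 283519 bp for Pmvk and 191651 bp for Mvd. For the isoprenoid genes Idi1 and Fdps the OLG distances were 2907435 and 142526 bp, and the OPC distances 232432 and 522138 bp. Hmgcs1 was the nearest of these 6 genes to an OPC peak and one of the farther ones from an OLG peak.

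Among the genes that close and trim the sterol rings, the nearest peaks were also mostly over 100 kb away. Fdft1 was 118229 bp from an OLG peak and 256669 bp from an OPC peak. Sqle, the squalene epoxidase gene, was at 1181125 bp in OLG and 218598 bp in OPC. Lss was at 103300 bp in OLG and 181363 bp in OPC. Cyp51, the lanosterol demethylase gene, had the longest OLG distance of the set, 8278706 bp, with 302381 bp in OPC. The demethylation genes Nsdhl and Hsd17b7 were at 4592744 and 490285 bp in OLG and at 1125591 and 206716 bp in OPC. Ebp, the sterol isomerase gene, had the longest OPC distance of the set, 1990387 bp, with 699270 bp in OLG. Sc5d, a sterol desaturase gene, was at 150941 bp in OLG and 80525 bp in OPC, and Dhcr7, whose product makes cholesterol from its last precursor, was at 207739 bp in OLG and 393946 bp in OPC. Msmo1 was the only cholesterol gene within 50 kb of a peak of both lists. Its OLG peak (chr8:64692878-64693098) and OPC peak (chr8:64692800-64693008) overlapped by 131 bp, with centres 84 bp apart, 40804 and 40888 bp downstream of Msmo1 and 66 and 150 bp from the start of Cpe, a carboxypeptidase gene.

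The remaining fatty acid genes had no peak within 50 kb. Fasn, the fatty acid synthase gene, was 163790 bp from an OLG peak and 108309 bp from an OPC peak. For the desaturase genes Scd1 and Scd2 the distances were 776564 and 662529 bp in OLG and 76239 and 190274 bp in OPC. Elovl5, an elongase gene of polyunsaturated fatty acids, was at 191260 bp in OLG and 98756 bp in OPC. Elovl6, an elongase gene of shorter saturated fatty acids, was at 437551 bp in OLG and 332385 bp in OPC. Fasn, Scd2 and Elovl6 were over 100 kb from a peak of either list.

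Of the other sphingolipid genes, Kdsr alone had a peak within 50 kb. Kdsr encodes the reductase that follows the first step of sphingoid base synthesis. It was 1931179 bp from an OLG peak, and had OPC peaks 41560 and 45797 bp downstream that lay 3893 and 344 bp from the start of Bcl2. Sptlc1 and Sptlc2, which encode the serine palmitoyltransferase of the first step, were at 395841 and 505185 bp in OLG and at 274484 and 83813 bp in OPC. Degs1, the dihydroceramide desaturase gene, was at 1369590 bp in OLG and 240700 bp in OPC. Ugcg, the glucosylceramide synthase gene, was at 277719 bp in OLG and 185715 bp in OPC. In the sphingolipid branch the peaks within 10 kb were thus at the ceramide synthase genes, and none of Sptlc1, Sptlc2, Kdsr, Degs1 and Ugcg had one in either list.

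**Figure D3:**
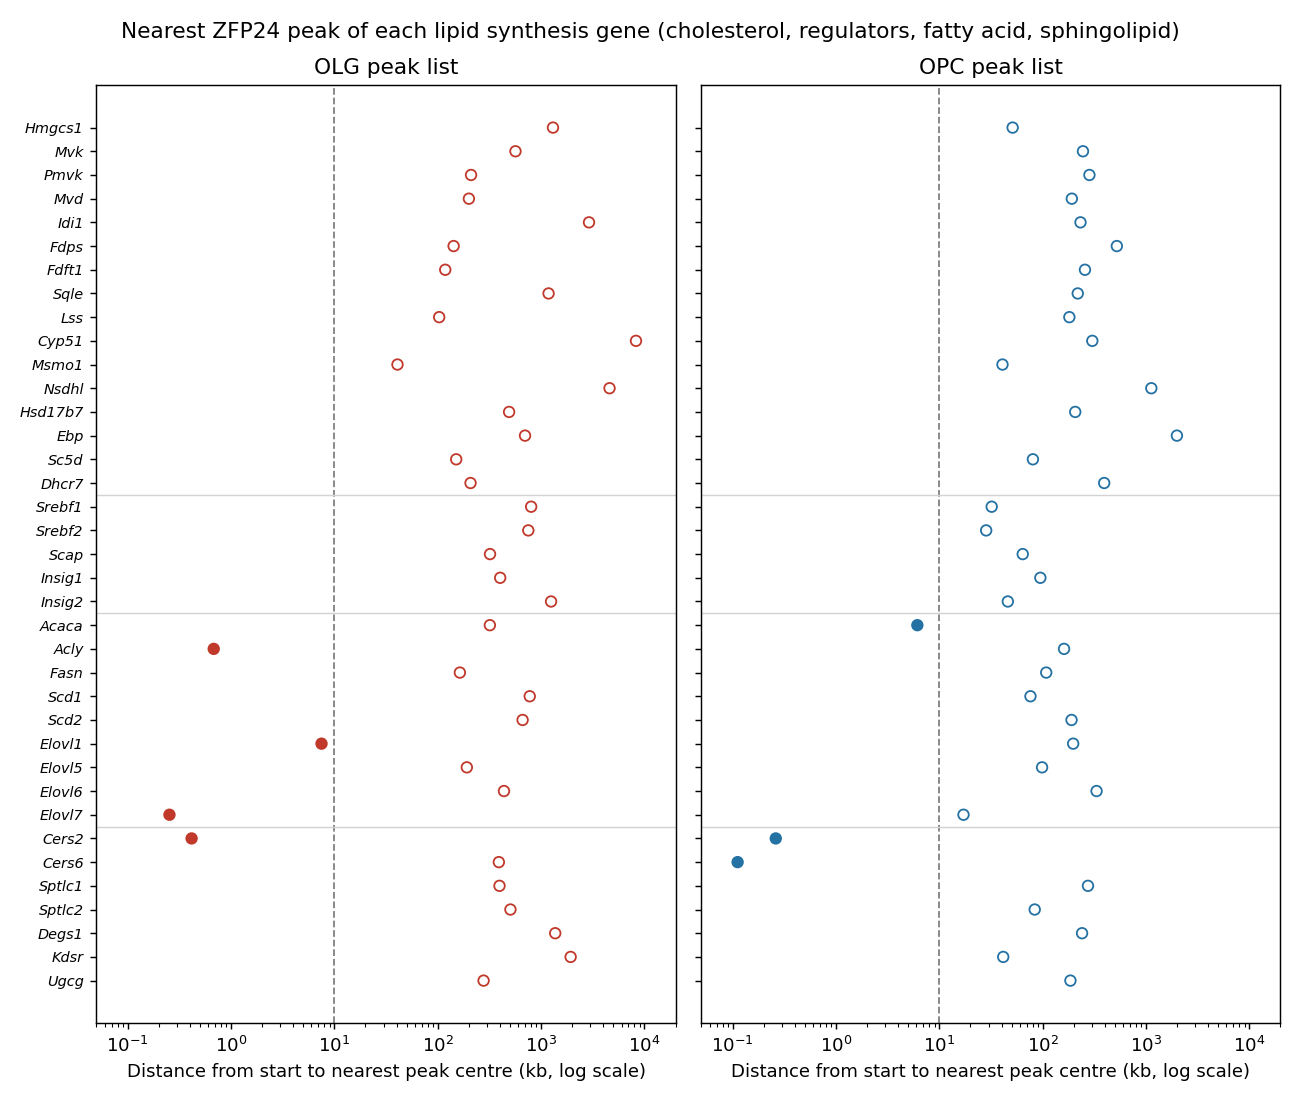
Distance from the transcript start of each of the 37 genes to the nearest ZFP24 peak centre (kb, log scale) in the OLG list (left) and the OPC list (right), with genes in the order of the branches named in the title. Filled circles are within 10 kb (dashed line) and open circles outside it. Filled circles are confined to the fatty acid and sphingolipid genes, 4 in OLG and 3 in OPC.

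The median distance to the nearest OLG peak was 396 kb for the 37 genes and 335 kb for all genes, and to the nearest OPC peak 181 kb for the 37 genes and 129 kb for all genes. With the lower-numbered 50% of peaks of each chromosome, the OPC order was the other way, with 217 kb for the 37 genes and 260 kb for all genes. In OLG it was 887 kb for the 37 genes and 735 kb for all genes. Over 100 kb from an OLG peak were 32 of the 37 genes (86.5%), beside 75.8% of all genes. Over 100 kb from an OPC peak were 21 of the 37 (56.8%), beside 56.5% of all genes. By branch, median distances were 350 kb in OLG and 239 kb in OPC for cholesterol genes, 191 kb in OLG and 108 kb in OPC for fatty acid genes, and 396 kb in OLG and 83.8 kb in OPC for sphingolipid genes. Fatty acid genes were thus the branch with the shortest median in OLG, and cholesterol genes the one with the longest in OPC.

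**Figure D4:**
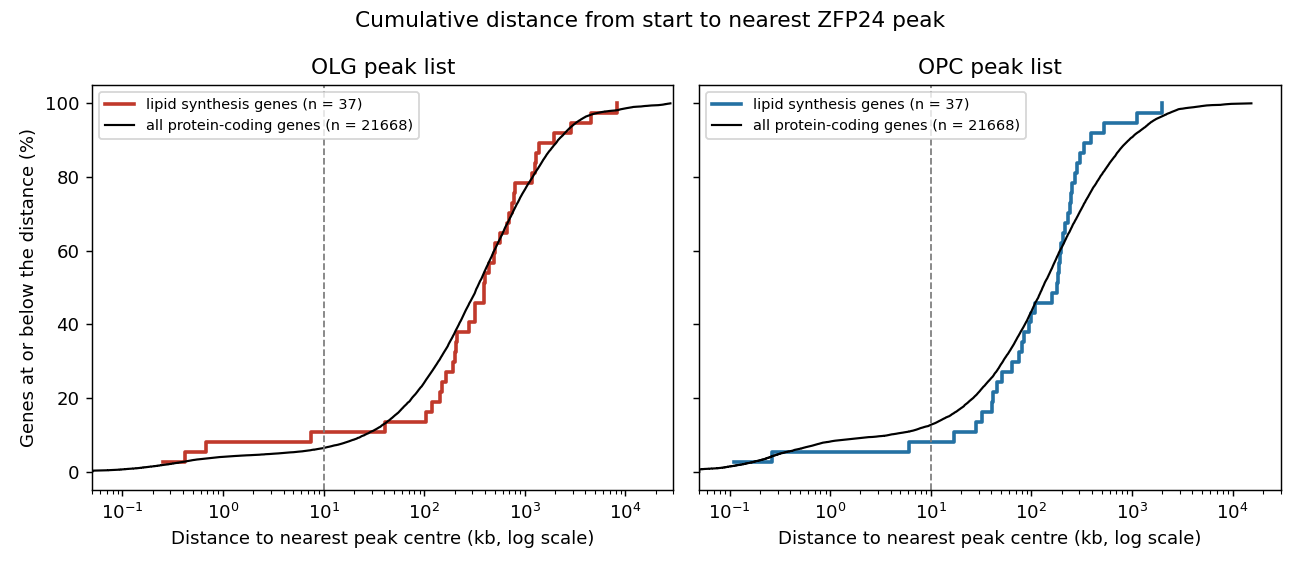
Cumulative share of genes (%) at or below a distance from transcript start to nearest ZFP24 peak centre (kb, log scale), for the OLG list (left) and the OPC list (right). Coloured steps are the 37 lipid synthesis genes, the black line all 21668 protein-coding genes and the dashed line the 10 kb limit. At 10 kb the steps stand at 10.8% in OLG and 8.11% in OPC, beside 6.48% and 12.8% of all genes, and the medians of the 37 genes lie to the right of those of all genes.

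Shares in the other windows are read against all genes in the same window. Within 2 kb of a start, 3 genes had an OLG peak (Acly, Elovl7 and Cers2, 8.11%, beside 4.57% of all genes) and 2 an OPC peak (Cers2 and Cers6, 5.41%, beside 9.20%). Within 50 kb, 5 genes had an OLG peak (13.5%, beside 15.1% of all genes), with Msmo1 added. Within 50 kb in OPC, 9 genes had a peak (24.3%, beside 29.2%), with Msmo1, Srebf1, Srebf2, Insig2, Elovl7 and Kdsr added. By these shares alone, the set was above all genes in OLG at 2 and 10 kb and below them at 50 kb. In OPC it was below them at all 3 windows. The 95% intervals at 2 kb were 1.70 to 21.9% in OLG and 0.661 to 18.2% in OPC. At 50 kb they were 4.54 to 28.8% in OLG and 11.8 to 41.2% in OPC. These intervals, and those at 10 kb, all include the share of all genes, so the set was not set apart from them. The median gene length was 23.5 kb in the set and 17.4 kb over all genes. With the mRNA starts of RefSeq in place of GENCODE, a choice made after seeing the data, the 10 kb counts were again 4 in OLG and 3 in OPC, beside 6.70% and 13.3% of 21521 genes. At 2 kb they were 3 in OLG and 3 in OPC, beside 4.75% and 9.59%, since the Acaca peaks are then within 2 kb.

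Tandem TCAT tracts lay in 2 of the 19 peaks that were within 50 kb of a start or inside a gene of the set, both OPC peaks. A tract of at least 12 bases lay in 6.05% of all OLG peaks and 12.4% of all OPC peaks. Of the 9 peaks within 10 kb of the 37 genes, 5 in OLG and 4 in OPC, 0 held one, a number too small to set apart from these shares. The OPC peak inside Elovl7 held a tract of 28 bases, centred 6 bp from the peak centre, and that inside Srebf2 one of 27 bases, centred 44 bp from it. By GENCODE basic, 6 OPC peaks were centred in introns of the set, and the other 4, of Acaca (2), Cers2 and Cers6, held none. A 27-base tract lay 309 bp from the centre of the far Cers6 peak. Around Acly a 12-base tract lay 623 bp from the centre of the OLG peak.

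Read from the tracts, most at these genes had no peak. Within the gene bodies and 10 kb to each side there were 16 tracts, at 11 of the 37 genes. An OLG peak centre lay within 100 bp of 0 of the 16, and of 0.716% of the 16888 tracts of the genome. An OPC peak centre lay within 100 bp of 2 of the 16, those in Elovl7 and Srebf2, and of 4.16% of all tracts. Among tracts of 24 to 31 bases, 2 of the 5 at these genes were at an OPC peak, beside 7.72% of such tracts in the genome. The other 3 of that length were the 27-base tract of Cers6, a 25-base tract beside Elovl1, 2886 bp from the nearest OLG peak centre, and a 25-base tract beside Sptlc2. With so few tracts these counts are a description only.

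Of the 9 peaks within 10 kb, 8 had a GC content above the median of their list, the exception being the farther OLG peak beside Elovl1. In OLG the peaks had a GC content of 64.3% at Acly, 76.0% at Elovl7 and 74.2% at Cers2, and 64.7% and 43.9% at the pair beside Elovl1, where the median of all OLG peaks was 58.8%. In OPC the peaks had 75.6% at Cers2, 59.3% at Cers6 and 56.0% and 67.0% at Acaca, where the median of all OPC peaks was 51.7%. By contrast the OPC intron peaks with a tract had 41.6% at Elovl7 and 48.8% at Srebf2. In the 500 bp around the start, the median GC content was 64.4% for the 37 genes and 57.7% for all genes, and genes with GC-rich starts had peaks more often. With all genes split by that content into 3 groups of about equal size, the lowest, middle and highest, 2.15%, 6.76% and 10.6% had an OLG peak within 10 kb and 5.10%, 15.1% and 18.1% an OPC peak. Of the 37 genes 2, 11 and 24 were in these groups, with OLG peaks at 0, 0 and 4 of them and OPC peaks at 1, 0 and 2. Of the 16 cholesterol genes, 7 were in the middle and 8 in the highest group, and 1 was in the lowest. The part of GC content in the counts was not tested.

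Promoters of the set were searched for letters of factors known at lipid genes. RefSeq (GRCm38) gave promoters, from 250 bases before to 50 after a start, for 32 of the 37 genes, 42 promoters in all, with 20054 promoters of 16426 genes as the background. Fdps, Fdft1, Sqle, Scd1 and Scd2 had no entry in the table used. The letters CCAAT, those of the NF-Y box, were on either strand in 61.9% of the 42 promoters and 37.9% of all promoters. In the cholesterol genes they were in 13 of 16 promoters (81.3%), with at least 1 such promoter in each of the 13 genes matched, and in 5 of 10 promoters of the regulators, 4 of 8 of fatty acid genes and 4 of 8 of sphingolipid genes. The GC box letters GGGCGG were in 71.4% of the promoters of the set and 47.9% of all, and CANNTG in 83.3% of the set and 68.6% of all. The letters TCACNCCAC, close to a sterol response element, were in 1 promoter of the set, that of Hmgcs1 (2.38%), and in 1.21% of all. A TCAT tract was in 0 of the 42 promoters and 0.0698% of all. Some of these letters overlap in the same promoter, promoters of 1 gene share bases, and a match is a description of the sequence alone.

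**Figure D5:**
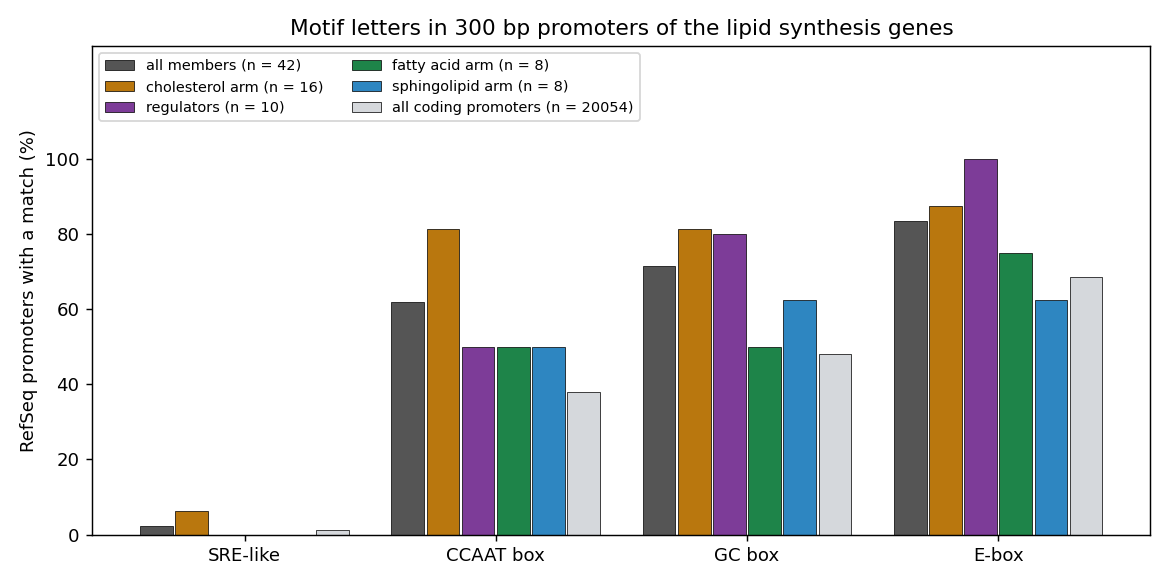
Share of RefSeq promoters (%, from 0) with the letters TCACNCCAC (SRE-like), of the CCAAT box, of the GC box or of the E-box, CANNTG, on either strand. Bars are all 42 promoters of the set, those of each branch (cholesterol 16, regulators 10, fatty acid 8, sphingolipid 8) and, in light grey, 20054 promoters of protein-coding genes. For CCAAT the cholesterol promoters stand at 81.3% and all promoters at 37.9%.

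The same letters were also counted in the ZFP24 peaks of the set. Of the 9 peaks within 10 kb, 0 held CCAAT, which was in 17.5% of all OLG peaks and 20.96% of all OPC peaks, and 0 held TCACNCCAC, which was in 0.970% of OLG and 0.732% of OPC peaks. These 9 peaks are too few to set apart from those shares. Farther out, CCAAT was in the OPC intron peak of Elovl7, the OPC peak 31698 bp upstream of Cers2 and the OPC peak 41560 bp downstream of Kdsr. GGGCGG was in the OLG peak of Cers2 and in the second OPC peak of Acaca, and in 26.9% of all OLG and 15.2% of all OPC peaks. CANNTG was in the OLG peaks of Acly and Elovl7, in the farther OLG peak beside Elovl1 and in the OPC peak at the start of Cers6, and in 60.1% of all OLG and 64.5% of all OPC peaks.

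Other genes of the same pathways, 75 in all and listed from textbook knowledge, had peaks at other steps. In OLG 5 of the 75 had a peak within 10 kb (6.67%, 2.20 to 14.9), close to the 6.48% of all genes. In OPC 15 of the 75 had one (20%, 11.6 to 30.8), where the share of all genes was 12.8%. By list, 0 of 20 further cholesterol genes had a peak in OLG and 6 of 20 in OPC (30%), 1 of 26 further fatty acid genes in OLG and 4 of 26 in OPC (15.4%), and 4 of 29 further sphingolipid genes in OLG (13.8%) and 5 of 29 in OPC (17.2%). The interval of the 6 of 20 was 11.9 to 54.3%, which overlaps that of the 0 of 16 cholesterol genes of the set in OPC, and both include the 12.8% of all genes.

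The further genes with a peak within 2 kb of a start came from several steps. In OLG they were Sphk1, a sphingosine kinase gene, 242 bp downstream of the start, Fads1, a fatty acid desaturase gene, 921 bp downstream, and Arsa, whose product breaks down sulfatide, 1194 bp downstream. In OPC the cholesterol-side peaks lay at Lbr, a sterol reductase and lamin receptor gene, 117 bp downstream, at the cholesterol transport genes Stard4 and Npc1, 722 and 835 bp downstream, and 623 bp upstream of Ggps1, an isoprenoid synthase gene, which was 312 bp from the start of Arid4b. In OPC the fatty acid peaks included those at the elongation genes Elovl3 and Hacd1, 108 and 786 bp downstream. The sphingolipid peaks of OPC were at Cers4, a ceramide synthase gene, 293 bp downstream, at Gal3st1, the gene of the enzyme that makes sulfatide, 1315 bp downstream, and at Col4a3bp, the gene of the ceramide transfer protein CERT, 149 bp downstream and 353 bp upstream. The upstream peak of Col4a3bp was nearer to the start of Polk, at 220 bp.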

How the data were processed

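ZFP24 ChIP-seq was done, per the labels' protocols, on wild-type and Zfp24-null OLG and OPC, with 75 nt single-end reads aligned to mm10. BWA (version not given) and HOMER 4.8.3 are named in the submitters' processing notes. The deposited values were other than counts or scores: 2 lists with chromosome, start, end and peak name, 1 per cell type. Depth is unknown. How peaks were called, and with which controls, is not stated in the labels or the lists.

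Peak centres were compared with protein-coding transcript starts of GENCODE M21 basic (GRCm38). The lengths of 20 chromosomes were read, and 0 peaks ran past an end. Positions are 1-based. The main window was 10 kb, and alternatives were 2 kb, 50 kb, other starts, other peak-to-gene rules and the lower-numbered 50% of peaks on each chromosome. TCAT tracts were at least 12 bases of the tandem unit, on either strand and in any phase. Calculations used Python 3.11.15, numpy 2.4.6 and scipy 1.17.1. No test was made, since each group is 1 library and genes are not replicates. Tested on simulated data, 200 of 200 genes with a planted peak were found among 21668 genes.

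The genes, the lists and the rules were chosen with earlier results of these data known. Named were all genes of the set by distance, the 3 nearest to the 10 kb limit on its outside in each list, and further lipid genes with a peak within 2 kb. A gene that this rule names is not reported here.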

Additional observations from a re-analysis of the deposited data

How the results depend on the processing

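Of 136 values recomputed under another setting, 115 stayed within 1.5 times the value in the report, and 21 moved. The 115 include counts of 0 that stayed at 0. Counts in other windows were compared without the share of all genes, which changes with the window. The 115 are thus no measure of how robust the results are. At 2 kb, further sphingolipid genes with a peak numbered 2 in OLG and 3 in OPC, and fatty acid genes of the set 0 in OPC. The shares of all genes at 2 kb were 4.57% in OLG and 9.20% in OPC. At 50 kb, the set had 9 genes in OPC and 3 in both lists, with 1 cholesterol gene in OLG and 1 in OPC, 3 regulators in OPC and 2 fatty acid genes in OPC. The shares of all genes at 50 kb were 15.1% in OLG, 29.2% in OPC and 7.72% in both lists. At 50 kb further lipid genes numbered 1 (cholesterol) in OLG, and 7 (fatty acid) and 8 (sphingolipid) in OPC. With the 5′ end of the gene record as the only start, 0 fatty acid genes of the set had an OPC peak, since the Acaca peaks are near a later start. The OPC share of all genes was then 12.1%. With the lower-numbered 50% of peaks, further sphingolipid genes numbered 0 in OLG and 2 in OPC, beside 3.77% and 7.74% of all genes. The median OLG distance of the set was then 887 kb, beside 735 kb for all genes. In OPC it was 217 kb, beside 260 kb, the reverse of the order with all peaks. Fewer peaks can lengthen but not shorten a distance. Where a peak counts for the nearest gene alone, at any distance, the set had 6 genes in OPC (beside 16.9% of all genes) and 2 in both lists (3.24%), with 2 regulators and 2 fatty acid genes in OPC. If an overlap of 50% of the shorter peak is asked for, the shared sites within 10 kb number 0 in place of 1, since the Cers2 peaks share 61 bp. Starts of all transcript types gave the counts of the report. No paired analysis was possible because each group is 1 library and the peak lists carry no replicate number. Unknown depth, the missing scores and the missing replicates limit every comparison of OLG with OPC, and reads of the null cells and the input were not used here.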

Other observations

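Further lipid genes had peaks between 2 and 10 kb from a start, named here after their values were seen. In OLG a peak lay between genes 5638 bp upstream of Fa2h, whose product hydroxylates the fatty acids of myelin galactolipids, and its nearest protein-coding start was that of Fa2h. Another OLG peak lay 4034 bp upstream of Ormdl1, a gene of a regulator of sphingolipid synthesis, in an intron of Pms1. In OPC a peak lay 7483 bp upstream of one start of Acacb, the gene of the second acetyl-CoA carboxylase, inside the gene. Sphk1 had an OPC peak 7150 bp upstream, away from its OLG peak at 242 bp downstream, and Sphk2, the other sphingosine kinase gene, had an OPC peak 8699 bp upstream that was 888 bp from the start of Spaca4.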
